A study of Danio rerio with 3 samples.

Results

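Apelin is a small secreted peptide, cut from a longer precursor, that acts on the apelin receptor, a class A G protein coupled receptor. The receptor signals mainly through inhibitory G proteins and is switched off and taken up with the help of arrestins. In growing vessels apelin is known as a product of sprouting tip cells, and apelin signalling promotes the outgrowth of sprouts. Zebrafish carry the ligand gene apln, the receptor genes aplnra and aplnrb, and a second ligand gene, apela (Toddler or Elabela), which guides cell movements at gastrulation. The aplnrb gene is the one mutated in the zebrafish grinch mutant, in which heart precursors do not reach their normal place.

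The genes described here are apln and aplnrb, taken by their symbols, and both were found among the 14581 gene symbols of the library. That library holds RNA of double positive cells, kdrl:mCherry+;sele:GFP+, sorted from untreated transgenic embryos labelled wild-type at 72 hours post fertilization (hpf). The kdrl reporter marks endothelium, and the sele reporter uses the regulatory region of the E-selectin gene. The series holds 2 further libraries, made from the GFP+ and the GFP- cells of kdrl:GFP embryos of the same stage. Their values were not used here, because the labels tie the value columns of their shared table to neither population. No level of apln or aplnrb in those cells, and no difference between populations, is therefore given.

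Levels are in FPKM, fragments scaled by transcript length and by a size factor of the library, as the authors deposited them. How that factor was set is unknown. FPKM is per length, so genes of the library can be set side by side in rough terms. Scaling by length does not remove other differences between genes in how their RNA was captured and mapped, and these were not assessed. There was 1 library per group, so no value has a replicate error, no test was run, and the order of genes at close levels is not established. The depth of sequencing is unknown, and with it the counting error. Over all symbols the median was 5.98 FPKM, with 5827 symbols (39.96%) at or above 10 FPKM and 803 (5.51%) at or above 100 FPKM. The table lists 1851 symbols at 0.

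The receptor gene and the ligand gene were both abundant in the double positive cells. The receptor gene aplnrb reached 351 FPKM (rank 217), and 1.48% of all symbols were higher. The ligand gene apln stood at 189.9 FPKM, rank 419, and 2.87% of all symbols were higher. These levels were 58.7 times and 31.8 times the median of all symbols. The receptor's level was 1.85 times that of the ligand, a log2 ratio of 0.88, and 201 symbols lay between them. A ratio of transcript levels per length is not a ratio of peptide to receptor protein. In RNA from a sorted pool, a gene used strongly by few cells and one used weakly by many cannot be told apart, so whether the same cells made ligand and receptor was not measured.

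The paralog aplnra, the other zebrafish apelin receptor gene, was far lower than aplnrb. It stood at 16.9 FPKM, rank 4266, still 2.82 times the median of all symbols. The level of aplnrb was 20.8 times, and that of apln 11.3 times, the level of aplnra. Near-identical stretches could let reads of the 2 receptor genes be shared or dropped, and the authors' handling of such reads is unknown, so the ratio of aplnrb to aplnra is uncertain to that extent. The second ligand gene, apela, matched no symbol of the table by name or synonym and was not analysed here.

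Set against the genes that drove the reporters, aplnrb stood at 0.82 times the level of kdrl (428 FPKM, rank 167) and 0.84 times that of sele (415 FPKM, rank 178). The ligand gene apln stood at 0.44 times the level of kdrl and 0.46 times that of sele. The receptor gene thus lay close to both reporter genes, and the ligand gene lay at under 0.5 times their levels. Whether the reporters themselves contributed kdrl or sele reads was not tested.

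**Figure D1:**
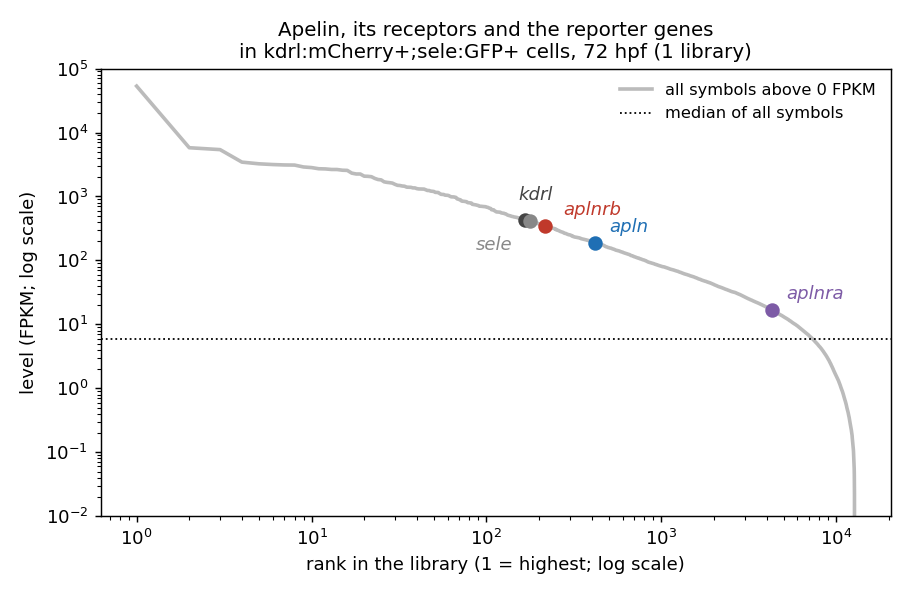
FPKM (log scale) of every symbol above 0 against its rank (log scale) in the library of double positive cells, with 5 genes marked and the median of all symbols as a dotted line (values below the axis floor are not shown). The aplnrb point at 351 FPKM lies just below kdrl and sele, apln at 189.9 FPKM follows, and aplnra at 16.9 FPKM lies far lower, above the median line.

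The library carried endothelial markers at levels like those of the apelin genes. Of 12 endothelial marker genes 11 were found, all between 89.1 and 843 FPKM, with a median of 333 FPKM. They include kdrl, whose reporter was used in the sort. The receptor gene is also known from heart precursors. All 7 heart muscle markers lay between 0.0637 and 0.641 FPKM, with none listed at 0. These markers were chosen for heart muscle, so whether heart precursors were present was not tested. Markers of other cells were present below the endothelial range in most cases. The 8 blood markers ranged from 1.43 to 252 FPKM, and the highest was the globin gene hbae3. The 5 skeletal muscle markers ranged from 0.943 to 30.4 FPKM, the 5 epidermal markers from 2.11 to 59.1 FPKM, and the 6 mesenchymal and mural markers from 0.680 to 71.4 FPKM. Of the 6 neuronal markers the highest stood at 24.0 FPKM, and gap43 was listed at 0. The part of these other cells in the levels of apln and aplnrb was not tested.

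Among other receptors of its class and neighbouring classes, aplnrb was near the top. Of 65 names in a list of vascular G protein coupled receptors, 39 distinct symbols were found, and aplnrb was in place 3 of these. Above it stood gpr182, an atypical receptor of sinusoidal and lymphatic endothelium, at 417 FPKM and the endothelin receptor gene ednraa at 368 FPKM. The level of ednraa was close to that of aplnrb, so their order is not established without replicates. Below aplnrb followed the thrombin receptor gene f2r at 273 FPKM and the sphingosine 1-phosphate receptor gene s1pr1 at 160.4 FPKM. The paralog aplnra was in place 18. The list also took in npr3 (5.45 FPKM), which is not a G protein coupled receptor. It counted ackr3b (134 FPKM) and cxcr7b (0.728 FPKM) apart, though both symbols can name the same gene. All of these lay below aplnrb. The median of the list was 11.9 FPKM, and 11.6 FPKM over the other 38 without aplnrb. Of the 39, 22 (56.4%) reached 10 FPKM and 8 (20.5%), aplnrb included, reached 100 FPKM. Over all symbols these shares were 39.96% and 5.51%. Another 4 (10.3%), among them the prostaglandin receptor gene ptger4c, were listed at 0, against 12.7% of all symbols. A listed 0 was not read as absence, since in such estimates it can also be a failed one.

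Among secreted and membrane-bound ligands, apln was also high. Of 71 names, 54 distinct symbols were found, and apln was in place 6. Above it were igf2b, an insulin-like growth factor gene, at 269 FPKM, egfl7, a secreted endothelial protein gene, at 245 FPKM, the matricellular gene ctgfa at 226 FPKM, the Notch ligand gene dlc at 197 FPKM and angptl4 at 191 FPKM. The levels of dlc and angptl4 were so close to that of apln that the order of these genes means little without replicates. The median of the list was 19.6 FPKM, and 17.5 FPKM over the other 53 without apln. Of the 54, 33 (61.1%) reached 10 FPKM and 11 (20.4%), apln included, reached 100 FPKM. Over all symbols these shares were 39.96% and 5.51%. Another 4 (7.41%), among them il34, were listed at 0, against 12.7% of all symbols. Both lists held known vascular genes, so a place within them is not a place among all receptors or ligands.

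Tip cell and sprout genes, to which apln belongs, had a median of 126 FPKM over the 21 found of 31. Without apln the median of the other 20 was 109 FPKM. Of the 21 genes, 20 (95.2%) reached 10 FPKM and 11 (52.4%) reached 100 FPKM, against 39.96% and 5.51% of all symbols. The highest were the Vegf receptor gene kdrl, the adhesion molecule gene mcamb at 313 FPKM, the Vegf receptor gene flt4 at 280.4 FPKM and egfl7, and apln was in place 6. Because the cells were sorted on a kdrl reporter, the place of kdrl is not independent of the sort. The list shares kdrl and egfl7 with the endothelial markers, and the part of the endothelial sort in its median was not tested. The tip cell gene esm1, a secreted proteoglycan gene, stood at 178.6 FPKM, close to apln. Other members were far lower, among them angpt2a at 30.3, cxcr4a at 21.7, igfbp3 at 12.2 and unc5b at 10.9 FPKM. The angiopoietin gene angpt2b was lowest at 0.565 FPKM. These values are averages over the sorted cells and do not place apln in tip cells.

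**Figure D2:**
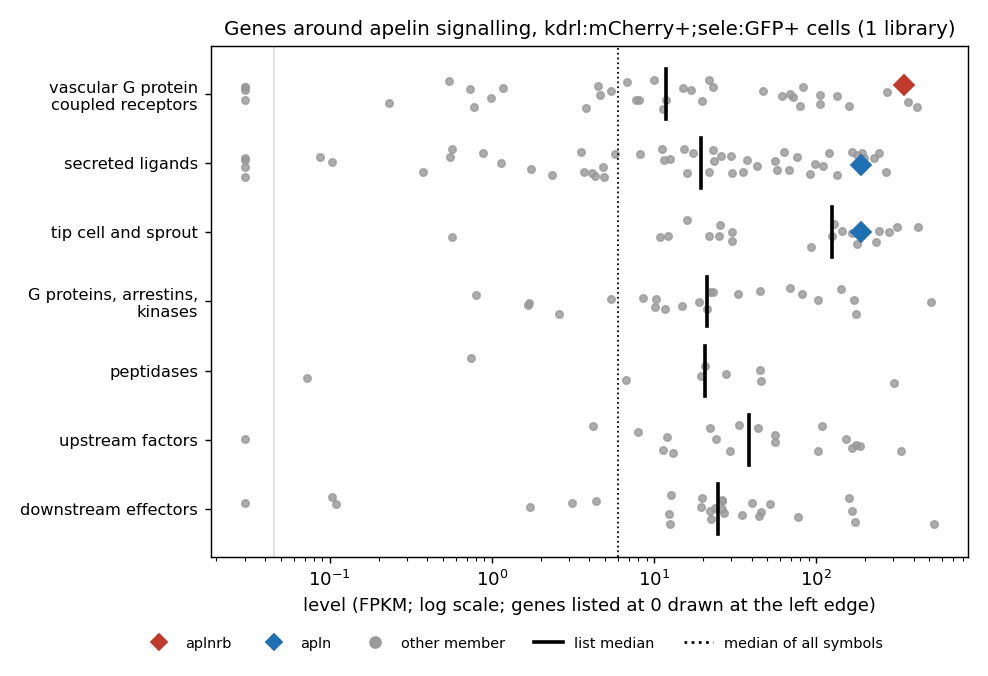
Level in FPKM (log scale) of each found member of 7 gene lists in the double positive cells, with diamonds for aplnrb and apln, bars for list medians and a dotted line at the median of all symbols. Genes listed at 0 are drawn at the left edge. The aplnrb diamond lies at the upper end of the receptors and the apln diamond at the upper end of the ligands, while the list medians run from 11.9 FPKM for the receptors to 126 FPKM for tip cell and sprout genes.

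Ligand and receptor were compared side by side in pairs known to signal in vessels or between vessels and their surroundings. Of 22 listed pairs, 4 had a gene that matched no symbol, and the other 18 had values above 0 for both genes. In the apelin pair both genes were high: its lower member, apln at 189.9 FPKM, was above the lower member of each of the other 17 pairs. This measure was chosen after the values were seen, and the pairs were chosen with earlier results of these data known. The next pairs by it were the Notch receptor and ligand genes notch1b at 186 FPKM with dll4 at 167 FPKM, and notch1a at 180.5 FPKM with jag2b at 110.2 FPKM. Of the 18 pairs as listed, these 3 had both genes at 100 FPKM or above, a level that 5.51% of all single symbols reached. The count of 3 pairs depended on which ligand paralog was paired. With edn2 at 135 FPKM beside ednraa and sema3ab at 119 FPKM beside plxnd1, 5 pairs had both genes at that level. The lower member of every pair other than apelin's still lay under apln. The Notch pairs kept their ligands in this swap, and the Notch ligand gene dlc at 197 FPKM was in no listed pair. Beside dlc, notch1b at 186 FPKM would be the lower member, so close to apln that their order is not established. The place of the apelin pair rests on aplnrb as its receptor. With aplnra at 16.9 FPKM instead, its lower member would lie under those of pairs such as cxcr4a with cxcl12b (21.7 FPKM).

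By the ratio of receptor to ligand the apelin pair lay in the middle of the range. The receptor gene was higher in 13 of the 18 pairs and the ligand gene in 5, and the median ratio was 2.19. The ratio of 1.85 for aplnrb and apln was in place 11 from the top. With aplnra as the receptor the ligand was instead the higher gene, apln at 11.3 times aplnra. The Vegf pairs were far from balance: kdrl was 37.3 times vegfaa (11.5 FPKM), and flt4 was 17.6 times vegfc (15.9 FPKM). The cells were sorted on a kdrl reporter, so the level of kdrl is not independent of the sort. The endothelin receptor gene ednraa, close to aplnrb in level, was 6.59 times edn1 (55.8 FPKM) and 2.73 times its paralog edn2. The angiopoietin receptor gene tek at 89.1 FPKM was 7.13 times angpt1 and 2.94 times angpt2a.

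The ligand was the higher gene in the chemokine, Kit, Tgf-beta and Igf pairs. The chemokine receptor gene cxcr4b was 0.81 times cxcl12a, and cxcr4a was 0.24 times cxcl12b. The ratio was 0.29 for kita and kitlga, 0.55 for tgfbr2 and tgfb1a, and 0.11 for igf1ra and igf2b, the lowest of the 18. With the lower paralogs kitlgb and igf2a as ligands the receptor was instead the higher gene, at ratios of 5.02 and 7.74. In the remaining 5 pairs the receptor was higher: plxnd1 with sema3aa at a ratio of 5.45 (1.05 with sema3ab), unc5b with ntn1a at 4.64, bmpr2b with bmp4 at 2.24, met with hgfa at 2.14, and csf1ra with csf1a at 9.10. The last of these ratios rests on 0.942 and 0.104 FPKM, levels too low to carry it. Many of these ligands are made by other tissues of the embryo as well, and the library shows only the sorted cells.

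**Figure D3:**
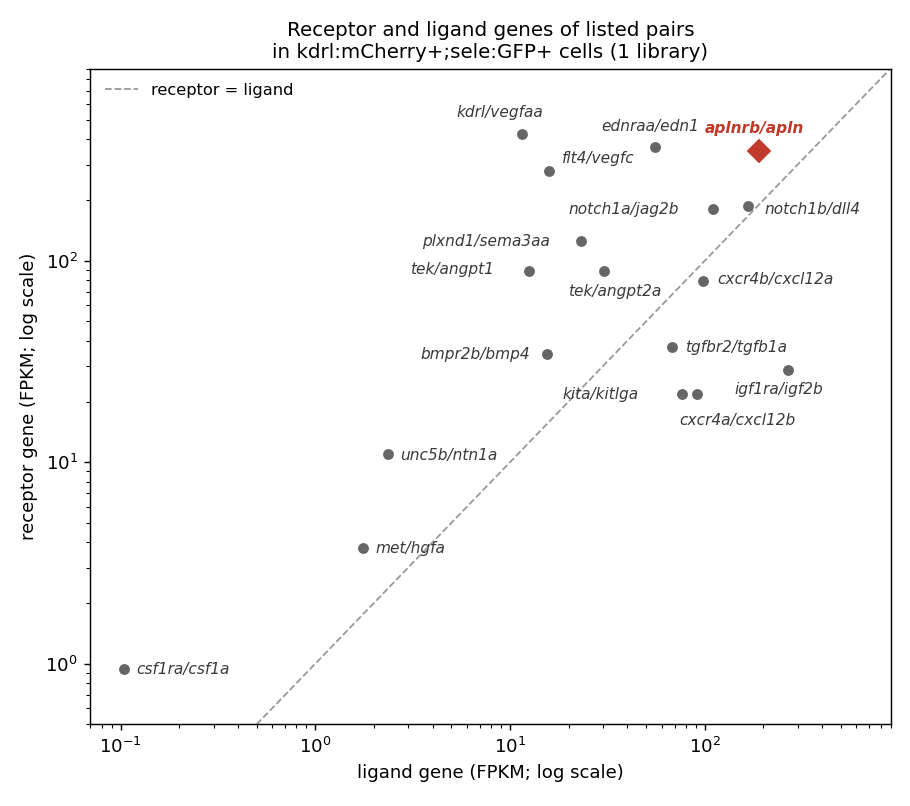
Receptor gene against ligand gene for 18 listed pairs in the double positive cells, both in FPKM on log scales, with a dashed line where the 2 are equal. The apelin pair (red diamond, 351 and 189.9 FPKM) lies at the upper right above the line, the Vegf pairs lie far above it, and igf1ra with igf2b lies farthest below it.

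Genes that carry or end the signal of class A receptors were present over a wide range. Of 29 names 23 distinct symbols were found, with a median of 21.1 FPKM. Of these, 17 (73.9%) reached 10 FPKM and 5 (21.7%) reached 100 FPKM, against 39.96% and 5.51% of all symbols. The highest was rgs5b, which encodes a protein that shortens G protein signalling, at 509 FPKM. It was followed by the inhibitory G alpha gene gnai2a at 177 FPKM, the G beta gene gnb1a at 170.3 FPKM and the arrestin gene arrb2b at 143 FPKM. The receptor kinase gene grk5 was lowest at 0.800 FPKM. Inhibitory G alpha proteins and arrestins are of the kinds the apelin receptor is known to use. Of the inhibitory G alpha genes found, gnai2a alone exceeded 100 FPKM. The others were gnaia at 69.2, gnai1 at 18.9, gnai2b at 8.57 and gnai3 at 2.60 FPKM. Of the arrestin genes found, arrb2b alone exceeded 100 FPKM, with arrb2a at 10.3 and arrb1 at 1.68 FPKM.

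Peptidase genes chosen for their known or possible action on apelin were mostly lower than apln and aplnrb. Of 16 names 9 distinct symbols were found, with a median of 20.6 FPKM. Of these, 6 (66.7%) lay at 10 FPKM or more, against 39.96% of all symbols. The lysosomal carboxypeptidase gene prcp was highest at 303 FPKM. The proprotein convertase genes furina and pcsk5b, of the family that cuts peptide precursors, stood at 45.5 and 44.8 FPKM, and the oligopeptidase gene prep at 27.9 FPKM.

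Factors placed upstream of apelin or its receptor from work in fish or mammals had a median of 38.5 FPKM over the 20 found of 22. Of these, 17 (85%) reached 10 FPKM and 7 (35%) reached 100 FPKM, against 39.96% and 5.51% of all symbols. The Ets factor gene etv2 was highest at 333 FPKM, followed by notch1b at 186 FPKM, hif1al at 177.3 FPKM and dll4 at 167 FPKM. The hypoxia-inducible factor gene hif1ab stood at 109 FPKM and foxo1a, whose mammalian relative restrains endothelial growth, at 153 FPKM. The lowest, gata6, was listed at 0.

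Effectors known downstream of the receptor had a median of 25.0 FPKM over the 28 distinct symbols found for 38 names. Of these symbols, 22 (78.6%) reached 10 FPKM and 4 (14.3%) reached 100 FPKM, against 39.96% and 5.51% of all symbols. In mammalian endothelium apelin is known to raise the Klf2 factor through Mef2 factors. The genes klf2b and klf2a were highest, at 534 and 173 FPKM, and Klf2 genes also respond to blood flow. They were followed by the small GTPase gene rhoaa at 167 FPKM and the connexin gene cx43 at 160.6 FPKM, and the highest Mef2 gene was mef2aa at 77.6 FPKM. The growth factor gene fgf2 was listed at 0. Levels in 1 library do not show whether apelin acted on any of these genes.

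With 1 library, the genes most like apln and aplnrb can be named only by their level. The 3 symbols just above aplnrb were fosl1a, sec61a1 and clic2, at 353, 351 and 351 FPKM, and the 3 just below were serpinh1a, cox4i1 and zgc:92411, at 348, 345 and 344 FPKM. The 3 just above apln were jam2a at 190.5 FPKM, zgc:56676 at 190.2 FPKM and a gene with a provisional clone symbol at 190.1 FPKM, and the 3 just below were tsc22d3, stab2 and commd10, at 189, 188 and 188 FPKM. Each neighbour lay within 2.07% of the gene it was named for, so these ranks are not firm. The scavenger receptor gene stab2 is a known endothelial gene. Others such as sec61a1, of the protein export machinery, and cox4i1, of the respiratory chain, are used by cells of most kinds.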

How the data were processed

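RNA was sequenced from 3 sorted cell populations of zebrafish embryos, 1 library each. Per the labels' protocols, a kit for low RNA amounts was applied after removal of ribosomal RNA. The submitters' processing notes name Zv9 (danRer7) as build and the tools Cufflinks 2.2.1, TopHat2 2.0.11 and cutadapt. Annotation, filters, depth and the handling of reads that fit several genes were not given in the sources used here. FPKM values were deposited by the authors, 1 per symbol, for the double positive cells. The name of the deposited sheet gives this unit and the tool Cuffdiff, whose settings are unknown. Such values are estimates, and a few abundant RNAs affect their scale: 316 microRNA and other small RNA symbols held 11.4% of the summed FPKM.

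The 2 value columns of the other table have names that the labels tie to neither kdrl:GFP population and were not used. The planned description of their levels and of a difference between them was not made.

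Genes were ranked within the library (tied genes shared a mean rank) in Python 3.11.15 with pandas 2.3.3, and the ranking was tested on simulated data. Genes were matched by symbol, or by a synonym that names 1 current gene in RefSeq's GRCz12tu gene table. That build differs from the data's, so no coordinates are given, and no sequence was at hand. The members, 8 lists and 22 pairs were chosen with earlier results of these data known. The text names the 4 highest members and the lowest of each list, the paired genes and the 3 nearest symbols on each side by level; 1 gene this rule takes is not reported here. The further members esm1, igfbp3, s1pr1, hif1ab, foxo1a, mef2aa, angptl4, npr3, ackr3b and cxcr7b were named after their values were seen. So were the ligand paralogs edn2, sema3ab, kitlgb and igf2a and the single markers hbae3 and gap43. The lower inhibitory G alpha and arrestin genes were also named after their values were seen.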

Additional observations from a re-analysis of the deposited data

How the results depend on the processing

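Among genes above 0 FPKM, aplnrb lay at the 98.3rd and apln at the 96.7th rank percentile, and among genes at 1 FPKM or more at 97.98 and 96.1, against 98.5 and 97.1 over all symbols. Without ribosomal protein, microRNA and other small RNA genes they lay at 98.9 and 97.6. Rescaled so that the FPKM of all symbols sum as TPM would, aplnrb was 656 and apln 355 on that scale. With the library scaled without small RNA genes they were 396 and 214 FPKM. These rescalings are 1 factor for all genes, so they leave ranks and ratios as they are. The log2 ratio of aplnrb to apln, 0.88 as deposited, was 0.88 with a pseudocount of 1 FPKM on both and 0.85 with 10 FPKM. With pairs limited to those with both genes at 1 FPKM or more, the receptor was higher in 12 of 17. With a paralog in place of 6 of the ligands, chosen after seeing the data, it was higher in 15 of 18, and 5 pairs in place of 3 had both genes at 100 FPKM or above. With exact symbols alone, an alternative chosen after seeing the data, the median of the receptor list was 15.96 FPKM and that of the ligand list 21.7 FPKM, and the other 5 list medians did not move. No paired analysis was possible because there was 1 library per group and no test, and for the same reason no replicate could be left out. The alternatives planned for the kdrl:GFP libraries were not run. Depth is unknown, so the precision of low values cannot be given.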
